A study of Homo sapiens with 21 samples.

Results

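The sites described here were regions of open chromatin that lay close to a transcription start site (TSS) without being classed as promoters. They were chosen from a consensus set of 367900 ATAC-seq sites by position and annotation alone, as those whose centre was at most 3000 bases from the nearest TSS and whose annotation was not promoter-TSS. Of all sites, 14812 (4.03%) met this rule, and their nearest TSSs belonged to 12235 gene names. The promoter-TSS class took in the window from 1000 bases upstream to 100 bases downstream of a TSS, so the flanking sites were centred either upstream of that window (3732 sites) or downstream of it (11080 sites). By annotation, 7491 were intronic, 4102 exonic, 2320 intergenic and 899 at a transcription termination site (TTS).

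All libraries were made from SK-N-BE(2) cells, a long-established line of human neuroblastoma, grown in Iscove's medium, transduced with lentivirus made in HEK293T cells and collected 72 h later. The 7 groups of 3 biological replicates were Control, shARID1A.2 and shARID1A.4 (silencing of ARID1A), shARID1B.2 and shARID1B.3 (silencing of ARID1B), and shARID1A/B.2.3 and shARID1A/B.4.2, the combinations in which both genes were silenced. Both genes were silenced by shRNA and not deleted, all groups came from the 1 cell line, and Control cells carried a non-silencing shRNA. The libraries held between 16140029 and 44472230 reads in sites, and no RNA was measured in them, so the depth of silencing could not be read from these data.

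ATAC-seq reports where the Tn5 transposase can reach the DNA, so the read count over a site rises with its accessibility. ARID1A and ARID1B are alternative structural subunits of the BAF complex, an mSWI/SNF remodeller that slides or ejects nucleosomes and keeps regulatory DNA open, above all at enhancers. DNA around a TSS is of more than one kind: CpG islands, rich in the CG dinucleotide, are open at many genes in most tissues, whereas CpG-poor elements a short way upstream or in the first intron are more often tied to a cell type.

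The sequences below show both kinds of DNA at sites that moved after combined silencing. Each is the central 200 bases of a site, with no annotated exon in the window, read from the plus strand of GRCh38, with every CG dinucleotide in capitals. The first 3 belong to sites that closed, the fourth to the site with the largest named rise, which is CpG-poor as well, and the last 2 to sites that spanned a CpG-rich TSS and opened.
Upstream of PDGFRB (closed), chr5:150158254-150158453: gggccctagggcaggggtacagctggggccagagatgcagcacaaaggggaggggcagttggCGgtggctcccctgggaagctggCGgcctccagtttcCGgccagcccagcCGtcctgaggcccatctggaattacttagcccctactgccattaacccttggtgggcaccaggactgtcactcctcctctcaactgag
First intron of ATP7A, nearest TSS PGAM4 (closed), chrX:77966558-77966757: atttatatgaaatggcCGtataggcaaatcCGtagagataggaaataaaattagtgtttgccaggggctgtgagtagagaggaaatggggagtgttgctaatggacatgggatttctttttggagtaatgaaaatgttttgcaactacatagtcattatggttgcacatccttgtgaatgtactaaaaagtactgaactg
Upstream of RP11-286B14.1 (closed), chr1:95507128-95507327: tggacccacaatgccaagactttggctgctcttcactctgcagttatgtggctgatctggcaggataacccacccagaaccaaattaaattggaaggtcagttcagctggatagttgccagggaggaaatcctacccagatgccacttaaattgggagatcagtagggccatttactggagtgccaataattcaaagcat
First intron of LOC152586 (opened), chr4:140472371-140472570: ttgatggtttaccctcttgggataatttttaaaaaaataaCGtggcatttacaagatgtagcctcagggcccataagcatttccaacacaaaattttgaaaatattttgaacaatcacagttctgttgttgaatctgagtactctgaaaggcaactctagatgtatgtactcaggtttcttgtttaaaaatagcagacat
First intron of ULBP1 (opened), chr6:149964274-149964473: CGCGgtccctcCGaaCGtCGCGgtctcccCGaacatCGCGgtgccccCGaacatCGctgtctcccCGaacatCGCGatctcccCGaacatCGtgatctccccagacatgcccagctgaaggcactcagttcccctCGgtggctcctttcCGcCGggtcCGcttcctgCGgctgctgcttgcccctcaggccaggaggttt
Upstream of HES1 (opened), chr3:194134899-194135098: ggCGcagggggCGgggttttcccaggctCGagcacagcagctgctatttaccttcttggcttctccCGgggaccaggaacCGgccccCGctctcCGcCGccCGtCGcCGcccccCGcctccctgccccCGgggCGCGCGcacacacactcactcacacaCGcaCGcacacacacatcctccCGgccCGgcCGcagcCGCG
The closed windows held 4, 2 and 0 CG dinucleotides and the LOC152586 window held 1, against 21 in the ULBP1 window and 23 in the HES1 window.

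Combined silencing closed a minority of the flanking sites and opened a larger number by a smaller amount. Of 14563 flanking sites with enough reads to test, 1169 closed and 2263 opened relative to Control (edgeR quasi-likelihood test on the mean of both combinations, Benjamini-Hochberg (BH) adjusted p under 0.01). These were 8.03% and 15.5% of the flanking sites, against 10.3% closed and 3.43% opened among all 357029 sites tested. The median log2 change was -0.87 among the closed and 0.41 among the opened flanking sites, and a change of at least 1 was reached by 451 closed and 30 opened sites. The balance depended on how libraries were scaled. Scaling on promoter-TSS sites alone moved the median log2 change of all sites from 0.03 to -0.20 and turned the flanking counts into 2187 closed and 496 opened, although the median of the flanking sites stayed 0.10 above that of all sites. An offset for the GC content of sites gave 1435 closed and 1446 opened and brought that gap to 0.02. As these were bulk libraries, a site open in fewer cells and a site less open in each cell cannot be told apart.

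The flanking sites were of 2 kinds. In 6487 of them (43.8%) the site was long enough to reach over the TSS itself, and 8325 lay apart from it. TSS-covering sites had a median length of 1712.5 bases, a median Control level of 6.30 reads per 1000000 reads in sites (CPM) per kilobase of site and a median CpG ratio (observed over expected CG dinucleotides) of 0.66, beside 6.46 CPM per kilobase and 0.66 for promoter-TSS sites. Sites apart from the TSS were shorter, at 683 bases, and less open, at 1.54 CPM per kilobase, with a CpG ratio of 0.23, beside 1.35 CPM per kilobase and 0.19 for the remaining sites. Of the TSS-covering sites, 276 closed (4.26%) and 1889 opened (29.1%). Of the sites apart from the TSS, 893 closed (11.1%) and 374 opened (4.63%), the latter falling to 226 without Control replicate 2. The promoter-TSS class itself had 4.24% closed and 33.4% opened. Closed sites outnumbered opened ones among the sites apart from the TSS under each of the 4 scalings and the GC offset, whereas TSS-covering sites turned to 815 closed and 408 opened with scaling on promoter-TSS sites.

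Distance from the TSS ordered the sites in the same way. Among sites centred 100 to 250 bases downstream, 2.54% closed and 34.2% opened. At 500 to 750 bases downstream the shares were 5.62% and 18.2%, at 1000 to 1500 bases 9.95% and 8.14%, and at 2500 to 3000 bases 14.1% and 4.72%. Opened sites were thus the commoner call next to the TSS and closed sites the commoner one beyond 1000 bases. With scaling on promoter-TSS sites the first of these bins had 7.89% closed and 7.67% opened and the last 20.1% closed and 0.410% opened. The share of sites that covered the TSS fell along the same bins, from 96.6% in the first to 0.615% in the last. Upstream, 11.0% closed and 7.63% opened at 1000 to 1500 bases, and 12.9% and 4.35% beyond 2500 bases. Across the limit of 3000 bases, given with no test, there were 13.5% closed and 4.55% opened among sites 2500 to 3000 bases away on either side, and 12.5% and 4.16% among sites 3000 to 3500 bases away, which the rule left out. Among TSS-covering sites at 1000 to 1500 bases, 11.0% closed and 16.0% opened downstream, and 13.8% and 13.0% upstream. Within the sites apart from the TSS, the closed share ran from 3.56% at 250 to 500 bases downstream to 14.0% at 2500 to 3000 bases. The opened share of the sites apart from the TSS did not fall, at 2.27% and 4.64% in the same bins. The nearer of these sites were shorter (median 511 against 671 bases) and had fewer reads (median 0.697 against 1.20 CPM in Control). Their median log2 change was 0.05 against 0.03, and distance was not tested apart from depth or from reach over the TSS.

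**Figure D1:**
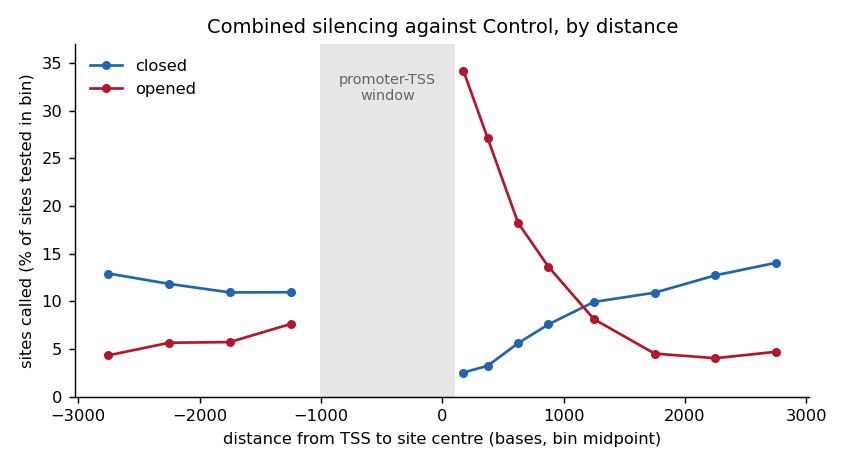
Percentage of tested flanking sites that closed (blue) or opened (red) after combined silencing, against the distance in bases from the TSS to the site centre, in bins. The opened share fell from 34.2% next to the TSS to 4.72% at 2500 to 3000 bases downstream while the closed share rose from 2.54% to 14.1%. The share of sites that covered the TSS fell from 96.6% to 0.615% over the same bins. With scaling on promoter-TSS sites the bin next to the TSS had 7.89% closed and 7.67% opened and that at 2500 to 3000 bases 20.1% closed and 0.410% opened.

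CpG content divided the directions within both kinds of site. Of all flanking sites with a CpG ratio up to 0.2, 14.2% closed and 1.49% opened, and of those with a ratio over 0.8, 0.387% closed and 49.6% opened. TSS-covering sites closed in 17.5% and opened in 1.81% of cases in the lowest bin, and in 0.270% and 52.7% in the highest. Sites apart from the TSS closed in 13.6% and opened in 1.44% of cases in the lowest bin, and in 1.11% and 30.0% in the highest. A CpG-poor site over a TSS was therefore called closed more often than opened, and a CpG-rich site away from a TSS was called opened more often than closed. CpG-poor sites (ratio up to 0.4) held 1067 of the 1169 closings, and CpG-rich sites (over 0.6) held 1770 of the 2263 openings. With scaling on promoter-TSS sites the CpG-poor sites had 1652 closings and 27 openings and the CpG-rich sites 308 and 419, and with the GC offset the counts were 1128 and 210, and 164 and 1003. With TMM scaling 188 CpG-poor sites opened and 21 CpG-rich sites closed. The openings of CpG-poor sites numbered 107 when Control replicate 2 was left out and 316 when shARID1A/B.2.3 replicate 2 was, and the closings of CpG-rich sites 13 without Control replicate 1. The parts of CpG ratio, GC content, length and depth in the result were not tested separately.

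**Figure D2:**
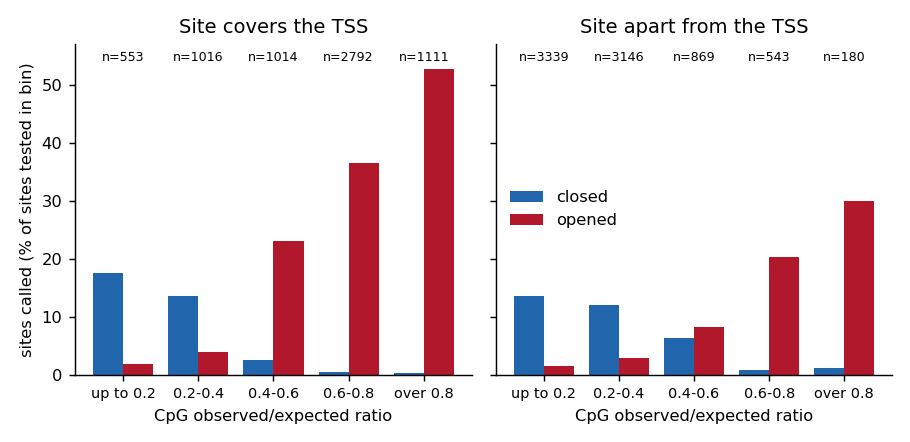
Percentage of tested flanking sites that closed (blue) or opened (red) after combined silencing, by the CpG observed/expected ratio of the site, for sites that cover the TSS and sites apart from it. The opened share reached 52.7% and 30.0% in the highest bin and the closed share 17.5% and 13.6% in the lowest. With scaling on promoter-TSS sites the sites with a ratio over 0.6 had 419 openings and 308 closings.

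Annotation classes followed the same division. Exonic sites, of which 69.1% covered the TSS, had 3.70% closed and 25.6% opened. Intronic sites had 9.69% and 13.5%, TTS sites 7.59% and 12.2%, and intergenic sites 10.6% and 5.32%. Closed sites lay near 1126 genes and opened sites near 2234, and 34 genes had both. Both directions were possible only for genes with more than a single tested flanking site, which were 2190 of 12104. Whether 34 differed from the number expected among those genes was not tested. Flanking sites whose gene also had a tested promoter-TSS site closed in 10.8% and opened in 6.01% of cases, and those without one in 7.37% and 17.8%. Of the former 13.0% covered the TSS and of the latter 52.1%, and the part of the promoter-TSS site was not tested apart from this.

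Read totals gave a view of the same sites without a fit. TSS-covering flanking sites took 10.04% to 10.3% of all reads in sites in the Control libraries and 11.4% to 12.5% in the 6 combination libraries, and the ranges did not overlap. The single-silencing libraries ran from 10.4% to 12.02%. Sites apart from the TSS took 2.21% to 2.37% in Control and 2.15% to 2.32% in the combinations, and these ranges overlapped. The share of reads in promoter-TSS sites rose alongside, from 20.0% to 20.6% in Control to 23.4% to 25.1% in the combinations, and the part of that shift in the openings was not tested.

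**Figure D3:**
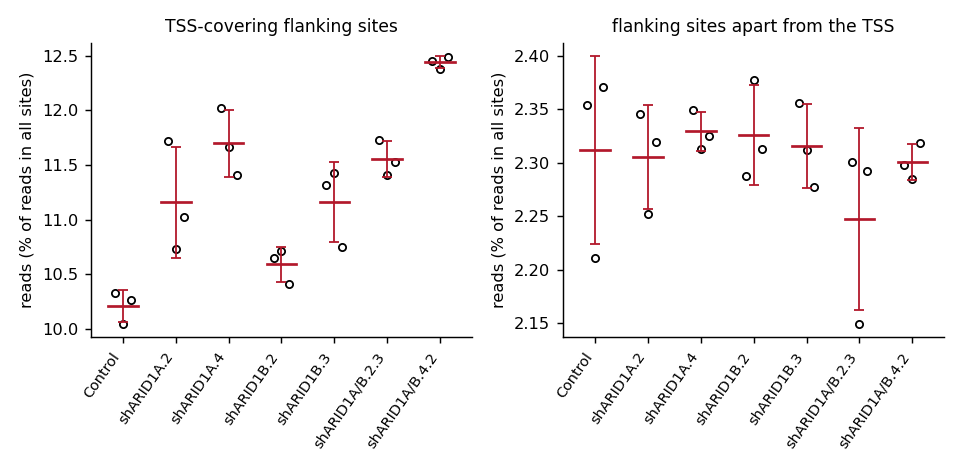
Share of each library's reads that fell in TSS-covering flanking sites and in flanking sites apart from the TSS, in percent of reads in all sites, by group, with 1 circle per library and the mean and SD of 3 libraries. The vertical axes do not start at 0. All 6 combination libraries were above the Control libraries for the TSS-covering sites (11.4% to 12.5% against 10.04% to 10.3%), and the groups overlapped for the sites apart from the TSS.

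Short motifs were counted in the central 200 bases of each site on both strands, as a description. The AP-1 motif TGANTCA, bound by JUN and FOS family dimers, occurred in 9.41% of closed, 5.11% of uncalled and 1.46% of opened flanking sites, and in 7.38% of all sites. The GATA motif AGATAA was present in 10.9% of closed and 1.68% of opened flanking sites, against 11.7% of all sites. The SP/KLF motif GGGCGG, whose letters are common in CpG islands, ran the other way, with 8.38% of closed, 49.4% of opened and 6.67% of all sites. Motif shares therefore split along the same line as CpG content. The ETS motif CCGGAAG occurred in 1.28% of closed and 4.68% of opened sites (all sites 1.03%), the E-box CAGCTG in 18.4% and 12.4% (12.2%), the NF-Y motif CCAAT in 23.7% and 12.5% (25.4%) and the TEAD motif GGAATG in 11.5% and 6.72% (11.5%). Among CpG-poor sites alone (ratio under 0.4), the AP-1 motif was in 9.84% of closed and 6.75% of uncalled sites, the E-box in 18.0% and 14.97%, and the TEAD motif in 11.996% and 12.1%.

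The 8 largest falls were named among sites averaging 1 CPM or more. The rule required a call in both combinations and no overlap with Control, so these traits are not results. Of the 8 sites 7 lay apart from the TSS, as did 411 of the 451 flanking sites closed by a log2 change of at least 1. The CpG ratios of the 8 lay between 0.0564 and 0.249. PDGFRB, a receptor tyrosine kinase for platelet-derived growth factor, had an intergenic site 2469 bases upstream of its TSS (chr5:150158124-150158583). Its Control libraries read 8.81, 7.81 and 9.06 CPM, those of shARID1A/B.2.3 read 1.58, 1.07 and 1.19, and those of shARID1A/B.4.2 read 2.06, 1.93 and 2.69. Every combination library was below every Control library (log2 -2.35, SE 0.13, edgeR BH-adjusted p = 4.02e-29). At PDGFRB the groups with 1 gene silenced lay in between, at 3.54 ± 0.569 CPM (shARID1A.2) and 5.41 ± 0.646 CPM (shARID1A.4) for ARID1A, and at 5.43 ± 0.641 CPM (shARID1B.2) and 2.49 ± 0.303 CPM (shARID1B.3) for ARID1B (SD, n = 3).

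A site in an intron of GAS7, which encodes a growth-arrest protein of the actin cytoskeleton, fell likewise (chr17:10060098-10061953, 1246 bases upstream of its nearest TSS). Control libraries read 7.07, 6.37 and 8.34 CPM, while shARID1A/B.2.3 libraries read 1.48, 1.09 and 1.27 and shARID1A/B.4.2 libraries 1.75, 1.56 and 1.95, with no overlap (log2 -2.28, SE 0.13, edgeR BH-adjusted p = 7.85e-28). The GAS7 site also fell after ARID1A silencing (log2 -1.48, edgeR BH-adjusted p = 3.3e-17) and after ARID1B silencing (log2 -1.71, edgeR BH-adjusted p = 1.36e-20). With shARID1B.3 alone it read 1.40 ± 0.0534 CPM (SD, n = 3), a level within the range of the combinations.

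A site in the first intron of ATP7A, a copper transporter, whose nearest TSS was that of the retrogene PGAM4, 2981 bases away (chrX:77966188-77967127), read 4.72, 4.19 and 4.21 CPM in Control. The combinations read 0.689, 0.465 and 0.879 and 0.851, 0.736 and 0.928 (log2 -2.57, SE 0.17, edgeR BH-adjusted p = 6.03e-24). The largest fall of all was at a site over the microRNA gene MIR4289 (chr9:88745243-88746335), from 10.1 ± 1.05 CPM in Control to 1.69 ± 0.0792 and 1.62 ± 0.317 in the combinations (SD, n = 3; log2 -2.62). At MIR4289 the shRNAs against 1 gene gave different levels, 8.58 ± 0.637 CPM for shARID1A.2 against 2.63 ± 0.348 for shARID1A.4, and 6.47 ± 0.766 for shARID1B.2 against 2.20 ± 0.138 for shARID1B.3 (SD, n = 3). The remaining falls named by this rule were near RP11-286B14.1, IQCF6, FLJ46066 and LOC102723682, with log2 changes of -2.35, -2.27, -2.26 and -2.24.

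The 8 largest rises under the same rule were smaller. Of these 8 sites 6 lay apart from the TSS, as did 25 of the 30 flanking sites opened by a log2 change of at least 1. A flanking site near MIR6775 rose by log2 1.67 but was not among the sites that met the rule. The LOC152586 site, in the first intron of that gene (chr4:140472175-140472765), read 1.06, 0.904 and 0.922 CPM in Control, 3.25, 2.90 and 2.73 in shARID1A/B.2.3 and 5.06, 4.602 and 4.96 in shARID1A/B.4.2. The groups did not overlap (log2 1.99, SE 0.17, edgeR BH-adjusted p = 4.12e-17). The other rises, near LOC100996573, C16orf3, MIR7-3HG, SNTG1, C6, CELF4 and TPSAB1, had log2 changes between 1.01 and 1.17. CELF4, an RNA-binding splicing regulator of neurons, had a TSS-covering site (chr18:37484967-37486105) that went from 4.09 ± 0.129 CPM in Control to 7.48 ± 0.283 and 9.07 ± 0.869 in the combinations (SD, n = 3; log2 1.01, SE 0.12, edgeR BH-adjusted p = 1.01e-11). At the intergenic site 2864 bases upstream of C6, a complement component, the combinations read 8.02 ± 0.716 and 12.4 ± 0.265 CPM against 4.92 ± 0.487 in Control (SD, n = 3). At C6 shARID1B.2 stood above Control, at 8.88 ± 0.415 CPM, and shARID1B.3 below it, at 3.84 ± 0.137 (SD, n = 3). The TPSAB1 site was no longer called without Control replicate 2.

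**Figure D4:**
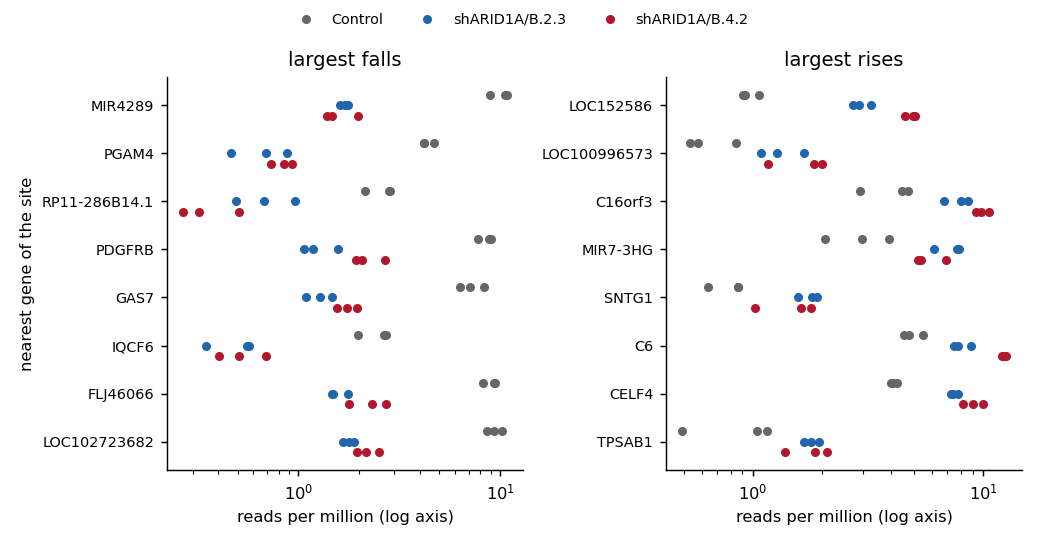
CPM, reads per 1000000 reads in sites (log axis), in each Control, shARID1A/B.2.3 and shARID1A/B.4.2 library at the flanking sites with the 8 largest falls and the 8 largest rises among sites that met the naming rule, 1 dot per library, 3 libraries per group. No combination library overlapped Control at any of these sites, which the rule that chose them required, and the falls reached log2 -2.62 while the rises reached 1.99.

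The TSS-spanning sites whose sequences are printed above carried far more reads. The site at ULBP1, a stress-induced ligand of the NKG2D receptor (chr6:149963029-149965717), read 28.8, 26.3 and 28.9 CPM in Control, 36.4, 33.8 and 37.5 in shARID1A/B.2.3 and 55.5, 50.3 and 53.5 in shARID1A/B.4.2 (log2 0.64, SE 0.07). The site at HES1, a repressor that carries out Notch signalling (chr3:194133781-194136216), read 61.6, 58.2 and 54.4 CPM in Control, 76.8, 78.2 and 73.8 in shARID1A/B.2.3 and 106, 94.5 and 98.4 in shARID1A/B.4.2 (log2 0.59, SE 0.07). Both were higher in every combination library than in any Control library.

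Gene lists chosen for this cell type and treatment gave 128 entries of tested flanking sites over the 10 lists. A site whose gene was in 2 lists was counted in each, as at FOSL1. Of the entries 9 closed and 33 opened, against 8.03% and 15.5% of all flanking sites. Most of the entries (87) covered the TSS, and of these 2 closed and 31 opened (35.6%), against 4.26% and 29.1% of all TSS-covering flanking sites. Of the 41 entries apart from the TSS, 7 closed and 2 opened. Counts of openings in these lists fell when libraries were scaled on promoter-TSS sites, and are given with that setting beside them. Among genes for BAF family subunits, 1 of 11 sites closed (DPF3) and 6 opened (ARID1B, BCL11A, BCL7A, DPF2, GLTSCR1 and SMARCB1), all 11 covered the TSS, and the median log2 change was 0.29 against 0.20 for all TSS-covering and 0.14 for all flanking sites, and with promoter-site scaling 1 closed and 3 opened (median 0.06). SMARCB1, a core subunit of mSWI/SNF complexes, read 10.1, 6.66 and 9.38 CPM in Control, 13.4, 8.57 and 12.4 in shARID1A/B.2.3 and 14.5, 15.5 and 15.2 in shARID1A/B.4.2. Of its combination libraries, 1 of shARID1A/B.2.3 fell inside the Control range (log2 0.59, SE 0.11, edgeR BH-adjusted p = 9.65e-06). BCL7A, another subunit gene, rose by log2 0.61 (SE 0.10, edgeR BH-adjusted p = 5.66e-07), also with overlap. With shARID1A/B.2.3 alone neither SMARCB1 nor BCL7A was called (edgeR BH-adjusted p = 0.0167 and 0.0121).

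Markers of the adrenergic identity of neuroblastoma were read as a check of the cell line. Of 7 adrenergic markers, 6 (all but ISL1) had a site within 3000 bases of the TSS, with Control levels of 2.57 to 15.9 CPM per kilobase (median 9.27), highest at PHOX2A. Of 13 markers of other lineages, 7 had one, at 1.45 to 8.37 CPM per kilobase (median 2.47), highest at APOA1, and those without one included ALB, CD3D, CD79A, KRT5 and KRT14. Among adrenergic transcription factors, 1 of 10 flanking sites closed and 2 opened (HAND1 and INSM1), with a median log2 change of 0.04, and with promoter-site scaling 5 closed and 0 opened (median -0.19). The closed site lay 2445 bases upstream of GATA2, a zinc-finger factor of sympathetic neurons (chr3:128495447-128495817). It read 3.61, 2.79 and 4.69 CPM in Control, 2.23, 1.74 and 2.15 in shARID1A/B.2.3 and 2.33, 1.84 and 2.09 in shARID1A/B.4.2, with no overlap (log2 -0.85, SE 0.14, edgeR BH-adjusted p = 1.05e-06). Single silencing did not pass the test at GATA2 (log2 -0.12 for ARID1A and -0.14 for ARID1B), and combined against single silencing differed there by -0.72 (SE 0.11, edgeR BH-adjusted p = 6.67e-08). HAND1, a factor of the sympathetic lineage, rose by log2 0.28 (SE 0.07) at a TSS-covering site and was not called with promoter-site scaling, with the GC offset or without Control replicate 3. With shARID1A/B.2.3 alone HAND1 was not called either (log2 0.18, edgeR BH-adjusted p = 0.104).

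Of 7 flanking sites near genes for catecholamine synthesis and storage, 1 closed and 4 opened (CHGA, CHGB, GCH1 and MAOA), with a median log2 change of 0.34, and with promoter-site scaling 1 closed and 1 opened (median 0.11). The 4 opened sites were those that covered the TSS. The closed site lay 2517 bases upstream of DDC, the decarboxylase that makes dopamine (chr7:50567506-50568397). Control libraries read 13.6, 13.8 and 12.7 CPM, shARID1A/B.2.3 read 5.12, 6.62 and 6.29, and shARID1A/B.4.2 read 6.99, 7.92 and 8.53, without overlap (log2 -0.96, SE 0.10, edgeR BH-adjusted p = 2.7e-14). At DDC the ARID1A shRNAs gave 8.48 ± 0.709 and 7.25 ± 0.144 CPM and the ARID1B shRNAs 11.7 ± 1.09 and 5.39 ± 0.637 (SD, n = 3). The shARID1B.3 libraries alone were therefore at or below the level of the combinations. CHGB, a secretory granule protein, rose by log2 0.66 (SE 0.08, edgeR BH-adjusted p = 4.01e-10) at a TSS-covering site.

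Mesenchymal regulators and markers had 0 of 15 flanking sites closed (edgeR, with 2 lower at an unadjusted p under 0.05 and 0 closed by DESeq2). In this list 2 sites opened, at SNAI1 and TEAD1, and the median log2 change was 0.10. The absence of closings depended on scaling. With promoter-site scaling 3 closed (LOXL2, PRRX1 and YAP1) and 1 opened (median -0.14). The GC offset gave 2 closed (LOXL2 and YAP1) and 0 opened. Total counts alone gave 1 closed (LOXL2) and 4 opened, and RLE size factors 0 and 2. SNAI1, a repressor of epithelial genes, rose by log2 0.43 (SE 0.09) and TEAD1, a DNA-binding partner of YAP, by 0.44 (SE 0.08). Both sites covered the TSS, neither was called with the GC offset, and SNAI1 was not called with promoter-site scaling. AP-1 genes, which encode the JUN and FOS subunits, had 0 of 6 sites closed (edgeR, 0 lower at an unadjusted p under 0.05 and 0 by DESeq2) and 4 opened (FOSB, JUN, JUNB and JUND), with a median log2 change of 0.45, and with promoter-site scaling 0 closed and 3 opened (median 0.22). Of these 6 sites 5 covered the TSS, all 4 opened ones among them, where 29.1% of all TSS-covering flanking sites opened. The JUND site (chr19:18279513-18282577) read 31.6, 29.1 and 34.1 CPM in Control, 56.7, 51.9 and 50.99 in shARID1A/B.2.3 and 55.5, 54.9 and 56.7 in shARID1A/B.4.2. No JUND combination library reached the Control range (log2 0.79, SE 0.08, edgeR BH-adjusted p = 1.82e-13).

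Genes of adhesion and matrix had calls in both directions. Integrins, the cell-surface receptors for extracellular matrix, had 1 of 14 sites closed (ITGA11) and 2 opened (ITGA4 and ITGA9), with a median log2 change of 0.23, and with promoter-site scaling 1 closed and 0 opened (median -0.01). Cadherins, which join cells to each other, had 2 of 15 closed (CDH5 and CDH24) and 2 opened (CDH1 and CDH10), with a median of 0.05, and with promoter-site scaling 5 closed and 0 opened (median -0.19). Collagens and laminins, structural proteins of the matrix, had 3 of 15 closed (COL3A1 and LAMB3 among them) and 1 opened (COL1A1), with a median of 0.11, and with promoter-site scaling 4 closed and 0 opened (median -0.12).

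The CDH5 site lay 1790 bases upstream of the VE-cadherin gene (chr16:66364245-66365419). It read 6.64, 6.94 and 6.93 CPM in Control, 4.07, 3.48 and 3.17 in shARID1A/B.2.3 and 3.23, 4.14 and 3.76 in shARID1A/B.4.2, without overlap (log2 -0.91, SE 0.12, edgeR BH-adjusted p = 4.67e-10). COL3A1 fell by 1.06 on the log2 scale (SE 0.22) at an intergenic site 2711 bases upstream. The COL3A1 fall was called with shARID1A/B.4.2 (log2 -1.56) but not with shARID1A/B.2.3 (log2 -0.56, edgeR BH-adjusted p = 0.0696). ITGA11 fell by 1.19 on the log2 scale (SE 0.31) from a low 0.745 ± 0.133 CPM (SD, n = 3), and this call was lost by DESeq2 and without Control replicate 1 or 2. With shARID1A/B.4.2 alone ITGA11 was not called (edgeR BH-adjusted p = 0.0178). ITGA4 rose by log2 0.33 (SE 0.08), and this call was lost with promoter-site scaling, with the GC offset and without Control replicate 3.

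Genes of the G1/S transition had 0 of 15 sites closed (edgeR, 1 lower at an unadjusted p under 0.05 and 0 by DESeq2) and 6 opened (CDK4, CDKN1C, CDKN2B, CDT1, E2F1 and MCM2), with a median log2 change of 0.28, and with promoter-site scaling 1 closed and 2 opened (median 0.05). Of these 15 sites 12 covered the TSS, all 6 opened ones among them. CDKN1C, the gene of the CDK inhibitor p57, read 19.0, 17.3 and 18.7 CPM in Control, 29.4, 25.9 and 26.3 in shARID1A/B.2.3 and 26.0, 24.8 and 28.1 in shARID1A/B.4.2, without overlap (log2 0.54, SE 0.09, edgeR BH-adjusted p = 3.28e-07). CDK4, a kinase that drives entry into S phase, rose by log2 0.46 (SE 0.07), but was not called with shARID1A/B.2.3 alone (log2 0.26, edgeR BH-adjusted p = 0.0175). Cytosolic ribosomal protein genes had 0 of 20 sites closed (edgeR, 0 lower at an unadjusted p under 0.05 and 0 by DESeq2) and 4 opened (RPL27A, RPL31, RPL36 and RPS15), with a median log2 change of 0.26, and with promoter-site scaling 0 closed and 1 opened (median 0.02). Of these 20 sites 16 covered the TSS, all 4 opened ones among them. Of all TSS-covering flanking sites 4.26% closed and 29.1% opened. RPL27A was not called with promoter-site scaling, nor with shARID1A/B.2.3 alone (log2 0.20, edgeR BH-adjusted p = 0.121).

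The combinations were also compared with Control one at a time. With shARID1A/B.2.3, 1312 flanking sites closed and 989 opened, where 10.4% of all sites closed and 2.85% opened. With shARID1A/B.4.2 the counts were 774 and 2951, against 7.37% and 3.97% of all sites. The median log2 change of the flanking sites was 0.08 in the first and 0.19 in the second, and scaling on promoter-TSS sites brought the openings to 429 and 596. The difference between the combinations was not tested.

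Single silencing called fewer flanking sites. ARID1A silencing (mean of both shRNAs) closed 604 and opened 1157, against 5.37% and 1.67% of all sites, and ARID1B silencing closed 399 and opened 594, against 3.53% and 1.39%. At sites apart from the TSS the counts were 475 closed and 199 opened for ARID1A, and 296 and 155 for ARID1B. The openings leaned on individual libraries. Without Control replicate 2 they numbered 431 for ARID1A and 180 for ARID1B. With shARID1A/B.2.3 replicate 2 left out, which enters through the scaling and the shared spread, they numbered 1852 and 965. Without shARID1A.2 replicate 1 or 2 the ARID1A count was 668 or 1955, and without shARID1B.2 replicate 2 the ARID1B count was 369. With promoter-site scaling the openings came to 218 and 227.

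Combined silencing was then set against the mean of the 4 single-shRNA groups. In the combinations 784 flanking sites were lower and 475 higher, against 6.85% and 0.969% of all sites. Of these, 617 of the lower and 55 of the higher sites lay apart from the TSS, and 167 and 420 covered it. The count of higher sites was 272 without shARID1A/B.4.2 replicate 3, 313 without its replicate 1, 740 without shARID1A.2 replicate 1 and 155 with promoter-site scaling.

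ARID1A silencing was also compared directly with ARID1B silencing. After ARID1A silencing 460 flanking sites were lower and 309 higher than after ARID1B silencing, against 3.69% and 1.05% of all sites. The spread in this test was that of replicate libraries within each shRNA group. Its p-values therefore do not cover differences between shRNAs to 1 gene, and a call can rest on 1 shRNA. The count of higher sites was 153 without shARID1A.2 replicate 1, 473 without its replicate 2, 181 without shARID1A.4 replicate 1, 167 without shARID1B.2 replicate 3, 175 without shARID1B.3 replicate 3 and 465 without shARID1A/B.2.3 replicate 2. The site with the largest of the named differences lay 2100 bases from the TSS of MIR7-3, a microRNA gene (chr19:4772255-4773346), where Control libraries read 3.27, 2.71 and 4.69 CPM. The ARID1A shRNAs gave 1.22 ± 0.266 and 2.42 ± 0.150 CPM and the ARID1B shRNAs 4.12 ± 0.285 and 11.3 ± 0.675 (SD, n = 3; log2 difference -1.99, SE 0.12, edgeR BH-adjusted p = 3.61e-24). The MIR7-3 level was thus higher with shARID1B.3 than with shARID1B.2, whose libraries overlapped Control. At KIAA1211 (chr4:56310300-56312276) the order was opposite, with 17.4 ± 1.02 and 15.8 ± 1.46 CPM for the ARID1A shRNAs, 16.0 ± 0.902 in Control and 7.86 ± 0.727 and 6.44 ± 0.169 for the ARID1B shRNAs (SD, n = 3; log2 difference 1.225, edgeR BH-adjusted p = 1.04e-23). LINC00934 read 13.5 ± 0.456 CPM in Control, 5.94 ± 0.184 and 5.47 ± 0.918 with the ARID1A shRNAs, and 10.2 ± 0.617 and 16.4 ± 1.11 with the ARID1B shRNAs (SD, n = 3), which stood on either side of Control.

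A comparison within each library, which library scaling does not move, set each flanking site against the promoter-TSS site of the same gene. In 2827 pairs from 2334 genes the log2 ratio of flanking to promoter reads was tested with limma. After combined silencing the ratio was lower in 288 pairs (10.2%) and higher in 128 (4.53%), with a median change of -0.03 over all pairs. Of the 288 lower ratios, 119 had a promoter-TSS site that opened, 8 one that closed and 161 one that was not called. The parts of the flanking and the promoter-TSS site in a lower ratio were not tested separately. Where the flanking site lay apart from the TSS, 249 of 2459 ratios fell and 80 rose, and where it covered the TSS, 39 of 368 fell and 48 rose. Of 304 flanking sites in pairs that closed by their own test, 45 had a promoter-TSS site that closed too (14.8%), 56 one that opened (18.4%) and 203 one that was not called. Over the promoter-TSS sites of all pairs, 6.93% closed and 13.6% opened, so both shares were higher beside a closed flanking site, with no test of the difference. Without Control replicate 1, 207 ratios were lower and 72 higher.

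The largest fall in ratio was at LOC102723682, whose intergenic flanking site (chr14:56115406-56116202) read 9.38, 10.2 and 8.66 CPM in Control, 1.67, 1.79 and 1.89 in shARID1A/B.2.3 and 2.51, 2.16 and 1.95 in shARID1A/B.4.2. Its promoter-TSS site rose from 23.6 ± 1.13 to 31.3 ± 0.594 and 35.0 ± 0.188 CPM (SD, n = 3), and the log2 ratio changed by -2.69 (SE 0.13). The flanking and the promoter site of this gene thus moved in opposite directions. At COPS6, a subunit of the COP9 signalosome, the flanking site 1748 bases upstream went from 1.93 ± 0.327 to 0.343 ± 0.2001 and 0.568 ± 0.302 CPM (SD, n = 3; log2 ratio change -2.47, SE 0.31). NPR2, the receptor for C-type natriuretic peptide, had a site in its first intron that went from 3.83 ± 0.359 to 0.835 ± 0.0378 and 0.854 ± 0.237 CPM (SD, n = 3), beside a promoter-TSS site at 10.6 ± 1.85, 10.3 ± 1.20 and 14.2 ± 1.501 (log2 ratio change -2.30, SE 0.22). GAS7 was the fourth (log2 ratio change -2.11, SE 0.19), but the promoter-TSS site under its name was 33333 bases from its nearest TSS and read 0.453 ± 0.0681 CPM in Control (SD, n = 3).

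The largest rises in ratio came with promoter-TSS sites that fell. At PAMR1, a secreted protease-like protein, the flanking site read 1.67 ± 0.206 CPM in Control and 1.64 ± 0.253 and 1.56 ± 0.128 in the combinations (SD, n = 3). Its promoter-TSS site, 4415 bases from the nearest TSS, dropped from 13.7 ± 0.647 to 3.01 ± 0.325 and 2.62 ± 0.548 CPM (SD, n = 3), so that the log2 ratio rose by 2.20 (SE 0.26). At MIR6775, a microRNA gene, both sites moved, the flanking site from 0.234 ± 0.0910 to 0.662 ± 0.288 and 0.885 ± 0.272 CPM and the promoter-TSS site from 4.71 ± 1.24 to 2.93 ± 0.857 and 2.82 ± 0.249 (SD, n = 3; log2 ratio change 2.09, SE 0.29).

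**Figure D5:**
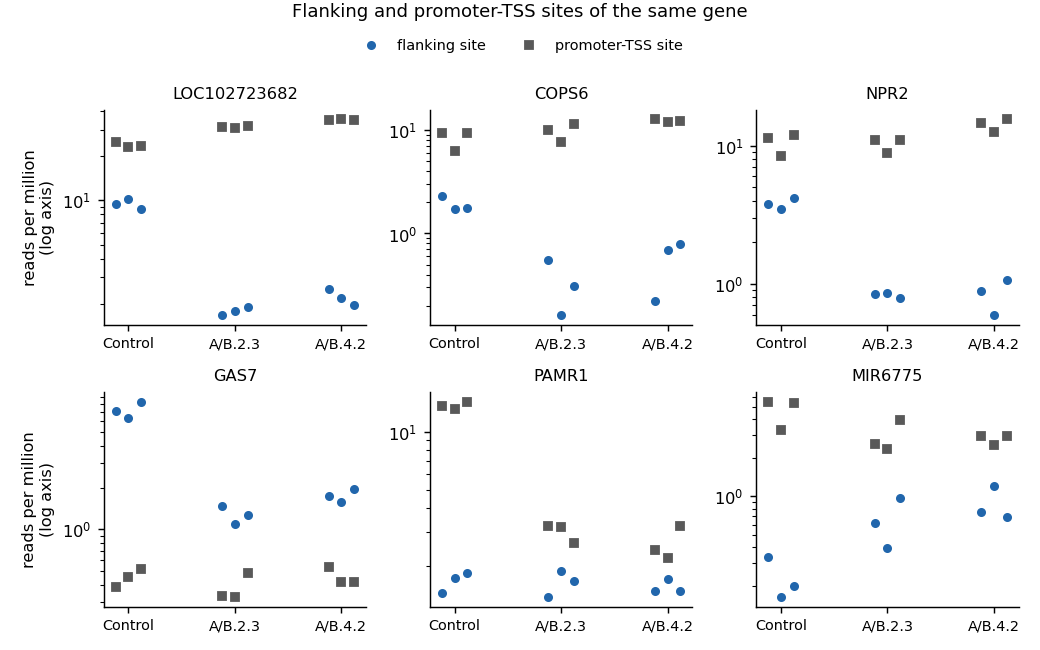
CPM, reads per 1000000 reads in sites (log axis), in each Control, shARID1A/B.2.3 and shARID1A/B.4.2 library at the flanking site and the promoter-TSS site of the same gene, for 4 pairs whose ratio fell most and 2 whose ratio rose most, 1 point per library. The flanking sites of LOC102723682, COPS6, NPR2 and GAS7 were below Control in all 6 combination libraries, whereas at PAMR1 the promoter-TSS site fell, from 13.7 to 3.01 and 2.62 CPM.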

How the data were processed

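ATAC-seq libraries were made by Tn5 tagmentation of nuclei from SK-N-BE(2) cells in biological triplicate and aligned to GRCh38 per the labels (aligner and peak caller not given in the sources used here). Raw read counts were deposited by the authors for each site of a consensus set in 21 libraries, with a HOMER annotatePeaks annotation of each site. DESeq2 is named in the submitters' processing notes, and their columns of log2 fold change and p-values for each comparison were not used. The members and gene lists were chosen with earlier results of these data known.

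Counts were fitted in R 4.3.3 with edgeR 4.0.16 (filterByExpr, minimum count 10, TMM scaling, quasi-likelihood test, 1 model over all 7 groups). Of 367900 sites, 357029 were tested and the Benjamini-Hochberg adjustment ran over all of them, with calls at an adjusted p under 0.01. CPM values were reads per 1000000 reads in sites, scaled by TMM. The standard error of a log2 change was its size divided by the square root of its F statistic. The spread came from libraries within each group. Where shRNAs or combinations were averaged, p-values and standard errors leave out the differences between them. Libraries held 16140029 to 44472230 reads in sites, and the common biological coefficient of variation was 0.0817. Every pair of replicates differed by more than sampling noise (chi-square per degree of freedom 1.08 to 2.47). Same-numbered deviations correlated by a minimum of 0.1 in all 3 pairs only between Control and shARID1A/B.2.3, at 0.124, 0.388 and 0.153. Unlike numbers of these groups correlated as well, at 0.113 (Control 1 with replicate 3) and 0.155 (Control 3 with replicate 1). The values thus set the replicates numbered 2 apart from the others and do not show a pairing of the rest. Flank-to-promoter log2 ratios were tested with limma 3.58.1 (prior count 2). Alternatives were RLE size factors, TMM on promoter-TSS sites, total counts, a GC offset, no filter, a replicate block, DESeq2 1.42.0, a stricter or looser call and each library left out. The edgeR fit was tested on simulated data with 200 changed sites among 349096, where 54.5% were recovered with 0 false calls. The limma test of pairs recovered 44.5% of 200 with 1 false call. The simulated counts had the same spread at every site and no shift of promoter-TSS sites or by GC content. They therefore cannot show the error that comes from scaling.

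Sites were named as follows: the 8 largest falls and 8 largest rises called in the averaged contrast and in the same direction in both combinations, averaging 1 CPM or more and no overlap of the 6 combination with the 3 Control libraries, 1 per gene; the 2 sites with the smallest p in each of 10 gene lists (1 of these is not reported here); the 3 with the smallest p each way for ARID1A against ARID1B; and the 4 largest falls and 2 largest rises in pair ratio. ULBP1 and HES1 were picked after their values were seen, for their sequences. Sequence windows came from GRCh38, and gene starts from the deposited annotation, which placed 1856 promoter-TSS sites over 3000 bases from their nearest TSS and left 192 sites without a class.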

Additional observations from a re-analysis of the deposited data

Results flagged for a closer look

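Results were marked where ARID1A and ARID1B silencing differed by a test of the difference itself. After ARID1A silencing 460 flanking sites were lower and 309 higher than after ARID1B silencing. The named sites among them lay near MIR7-3 (log2 difference -1.99), LOC101928716 (-1.34), LINC00934 (-1.17), KIAA1211 (1.23), RP11-43N5.1 (1.04) and RP11-713M15.1 (1.01). At MIR7-3 and LINC00934 the shRNAs against ARID1B gave levels apart from each other, as given above. At LOC101928716 the libraries of shARID1B.2 read 12.4, 13.0 and 12.7 CPM and those of shARID1B.3 read 7.67, 9.06 and 8.57, with Control at 7.602, 9.99 and 6.85. Differences between shRNAs to 1 gene were not tested, and the p-values of the comparison do not cover them.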

How the results depend on the processing

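Of the counts given for the main comparisons, 393 alternative values stayed within 1.5 times the reported count and 53 did not. With scaling on promoter-TSS sites the closed counts became 2187 for combined silencing, 1966 for shARID1A/B.4.2, 1267 for ARID1A and 854 for ARID1B, and the opened counts 496, 596, 218 and 227, with 429 opened for shARID1A/B.2.3 and 155 higher in combined than in single silencing. The GC offset left 1446 opened for combined silencing, 1751 for shARID1A/B.4.2 and 664 for ARID1A. Total counts alone gave 1913 opened for shARID1A/B.2.3, 1055 higher in combined than in single silencing and 534 higher after ARID1A than ARID1B. At an adjusted p under 0.05 the opened or higher counts were 1849 for shARID1A/B.2.3, 2080 for ARID1A, 1242 for ARID1B, 1038 for combined against single, 650 for ARID1A against ARID1B and 222 for pairs. Requiring a log2 change of at least 1 left 451 closed and 30 opened sites for combined silencing, 607 and 63 for shARID1A/B.2.3, 367 and 85 for shARID1A/B.4.2, 139 and 10 for ARID1A, 80 and 28 for ARID1B, 46 lower and 1 higher for combined against single, and 63 and 9 for ARID1A against ARID1B. Apart from the tighter and looser calls, which change the threshold by construction, the cause of these shifts was not tested.

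Leaving out 1 library at a time gave 431 to 1955 opened sites for ARID1A, 180 to 965 for ARID1B, 272 to 740 sites higher in combined than in single silencing, 153 to 473 higher after ARID1A than ARID1B, and 72 to 118 pairs with a higher ratio. For combined silencing these fits gave 928 to 1176 closed and 1609 to 3174 opened. They used a trended dispersion from 1 site in 10, which on all libraries gave 1170 and 2267. Of 63 pairs of same-numbered replicates 10 had a correlation of deviations over 0.1 (median 0.02), and 12 of 21 libraries were closest to their own number. With a replicate block 1207 sites closed and 2574 opened for combined silencing, 1371 and 1220 for shARID1A/B.2.3, and 283 pair ratios fell and 132 rose, and the block moved no count of the main comparisons by over 1.5 times. DESeq2 called 976 closed and 1999 opened. Over the named sites, 1401 alternative values kept their call, 33 lost it, 6 gained one and 0 changed direction. The covering, distance, CpG and gene-list alternatives were chosen after seeing the data. With 3 libraries a group, the 54.5% recovery in simulation leaves smaller changes undetected.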
